A study of Mus musculus with 14 samples.

Results

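The report describes 36 mouse genes of the endoplasmic reticulum (ER), those that fold, repair, degrade and export newly made secreted proteins, of 18194 genes on the arrays. The genes were taken by name. Their 87 probe sets, each annotated to 1 gene alone, were read on Affymetrix arrays of Th1 and Th2 cells, the mouse helper T cells that release interferon gamma and interleukin 4 respectively. Where a gene had several probe sets, the one with the highest mean deposited signal over the 14 arrays stood for it in counts. A filter on low signals kept 86 of the 87 probe sets, among them the 36 used for counts.

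The T cells had been polarised to Th1 or Th2 for 2 weeks, with 14 conditions and a single array for each. In each cell type there were untreated cells, cells with Thy1 siRNA (the control siRNA, against a surface glycoprotein of T cells) and cells with Trpm4 siRNA. The other arrays came from cells infected with a vector-only retrovirus or with a retrovirus that carries dominant negative (DN) Trpm4, each after 4 h and 12 h of a stimulation that the labels do not name. Trpm4 is a calcium-activated cation channel, and the series asks what its inhibition changes in each cell type. The labels give no strain, age or number of animals, and no stimulation for the untreated and siRNA arrays. Since no condition was repeated, arrays were matched in pairs that take the place of replicates. Vector and DN Trpm4 pairs share their cell type and time and may share a culture, so p-values measure only the spread between these arrays, whose small number limits the precision.

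Proteins destined for secretion or the cell surface enter the ER through the Sec61 channel, are folded by chaperones and joined by disulfide bonds, and leave in vesicles coated with COPII. When unfolded protein accumulates, the sensors Ern1, Eif2ak3 and Atf6 start the unfolded protein response, in which the transcription factors Xbp1, Atf4 and Atf6 raise the genes of folding, degradation and transport. Activated T cells make and release large amounts of cytokine through this route.

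The control probe sets divided the arrays into 2 kinds. The log2 ratio of the 3′ to the 5′ control was 5.43 to 5.91 for Gapdh and 3.96 to 4.85 for Actb in 6 arrays, those of Th1 cells at 4 h and of Th2 cells at both times. The remaining 8 arrays had ratios of -0.25 to 0.04 and of 0.05 to 0.47. The kind of array therefore differed between the times in Th1 cells and between the cell types at 12 h, and those comparisons cannot be told apart from it. The 4 h retrovirus arrays also differed in kind from the untreated and siRNA arrays. The T cell genes Cd3d, Cd3e, Cd3g, Cd4 and Thy1 exceeded the array median in all 14 arrays. Of 5 Th2 markers, Gata3, Il4 and Il5 were higher in every Th2 array than in any Th1 array, while Il13 and Ccr4 overlapped between the cell types. Of 5 Th1 markers, Ifng alone was separated, narrowly (at least 10.71 in Th1 and at most 10.70 in Th2), and Tbx21 had medians of 9.78 in Th1 and 9.84 in Th2. The log2 signal of Trpm4 itself went from 6.95 under the control siRNA to 6.23 under its own siRNA in Th1 cells, and from 7.25 to 6.62 in Th2 cells. The DN Trpm4 arrays stood clearly above their vector array in 1 of 4 pairs, Th1 cells at 12 h, at 9.21 against 6.62. The other pairs read 6.95 against 6.35 in Th1 cells at 4 h, 6.995 against 6.900 in Th2 cells at 4 h and 7.06 against 7.27 in Th2 cells at 12 h. The Th2 arrays labelled DN Trpm4 thus showed no clear rise on this probe set, and whether it detects the construct is not stated in the labels.

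**Figure D1:**
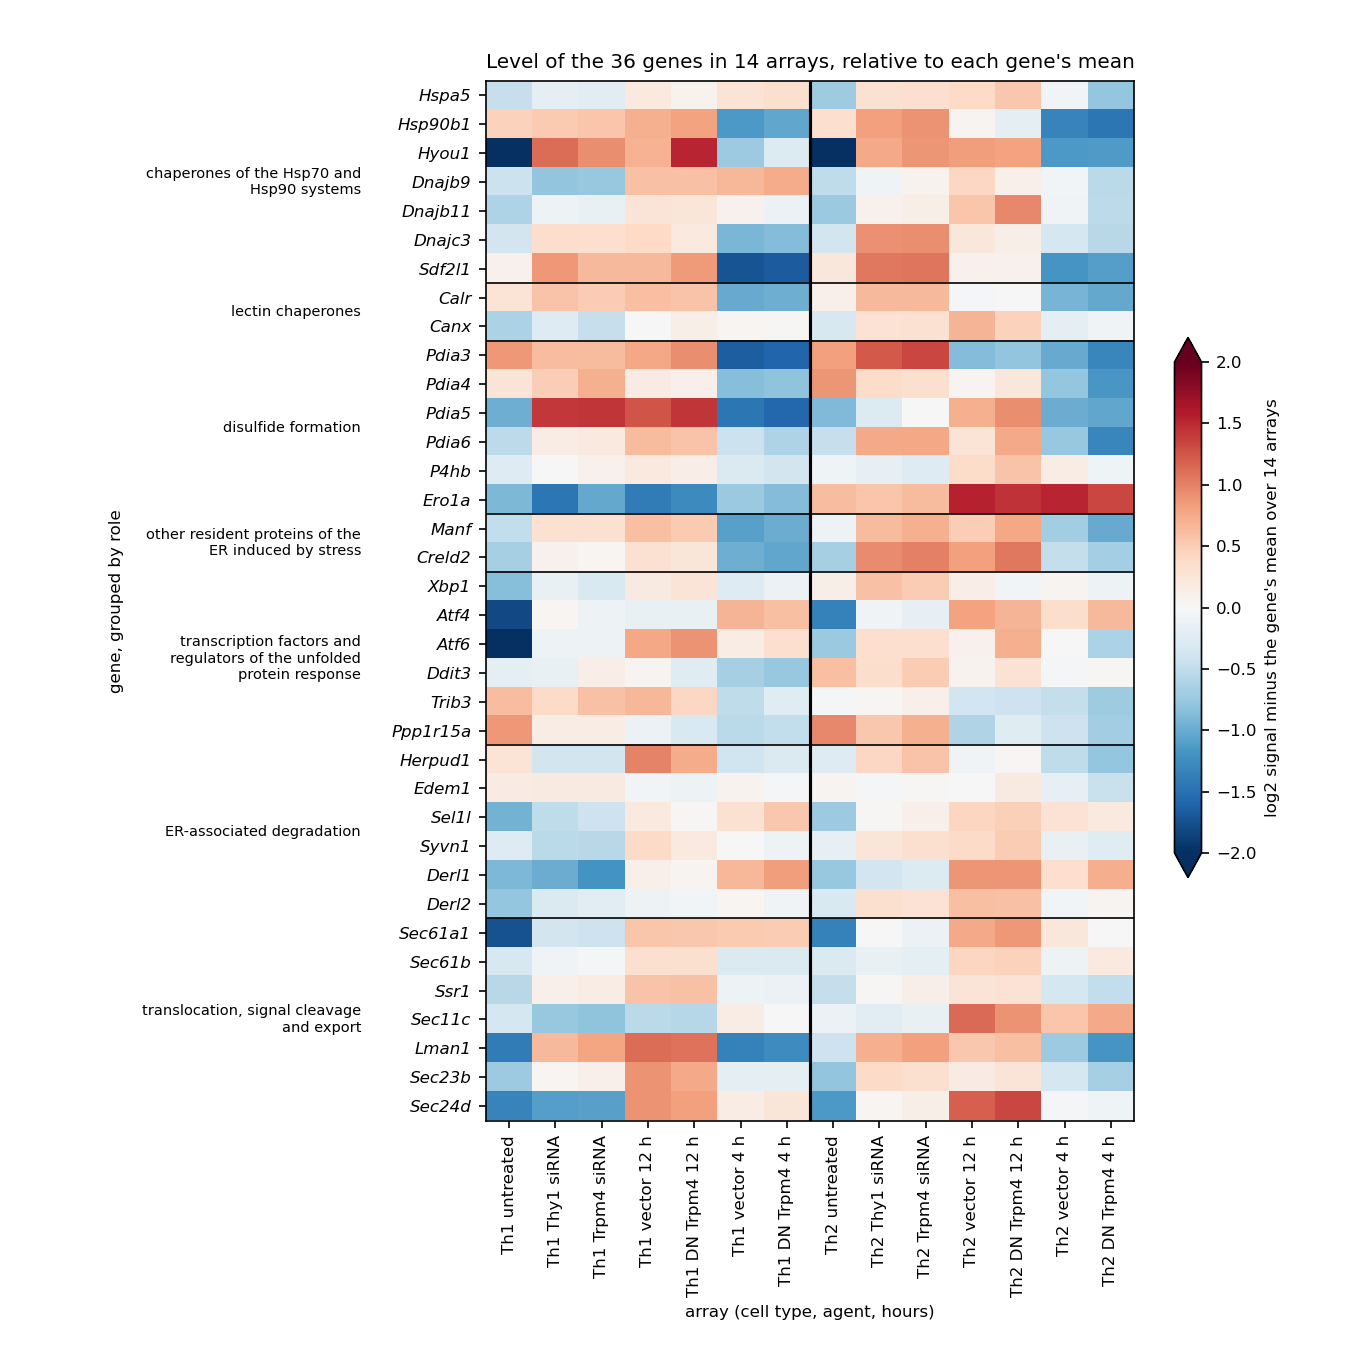
Log2 signal of the 36 genes (rows, grouped by role, lines between roles) in the 14 arrays (columns, Th1 left and Th2 right), as the difference from the mean of each gene over the 14 arrays. In the Th2 columns, most rows of chaperones are above their 4 h values at 12 h, and Ero1a is lower in each Th1 array than in each Th2 array.

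In stimulated Th2 cells the ER genes were higher at 12 h than at 4 h, and the 4 arrays of this comparison were of one kind. Of the 36 genes, 22 rose and 0 fell (limma, adjusted p under 0.05 over 29467 probe sets), and all 36 differences were above 0. Among all probe sets tested, 4.51% were higher and 5.57% were lower, and with 1 probe set per gene 5.49% and 6.87%. The median log2 difference of the 36 genes was 0.67, against 0.01 over all probe sets. It was 0.54 in the vector pair and 0.77 in the DN Trpm4 pair. In 33 of the 36 genes both 12 h arrays exceeded both 4 h arrays, as they did in 25.4% of all probe sets, and the times overlapped for Ero1a, Xbp1 and Ppp1r15a. The calls depend on both pairs and on the pseudocount. With the DN Trpm4 pair left out 12 genes passed, with the vector pair left out 23, and with a pseudocount of 1 in place of 16 no gene and no probe set passed, although the 36 genes kept a median of 0.68.

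**Figure D2:**
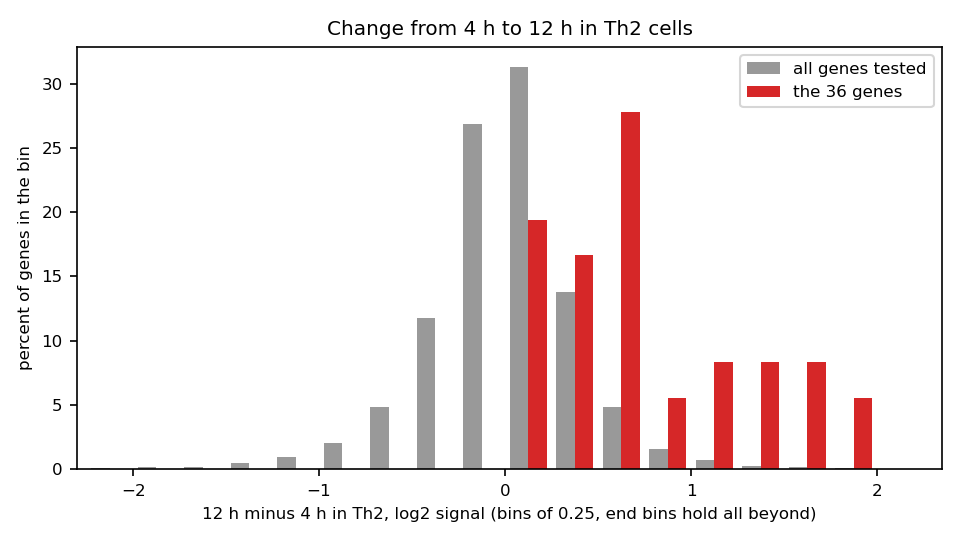
Log2 difference of 12 h minus 4 h in Th2 cells (x axis, bins of 0.25) against the percent of genes in each bin (y axis), for all 13118 genes tested (grey) and the 36 ER genes (red), 1 probe set per gene. All 36 ER genes lie above 0, with a median of 0.67.

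The chaperones of the Hsp70 and Hsp90 systems rose in Th2 cells, 7 of 7. Hspa5 (BiP) is the main Hsp70 chaperone of the ER. Its log2 signal in the vector arrays went from 12.32 at 4 h to 12.78 at 12 h, and in the DN Trpm4 arrays from 11.61 to 12.91. Both 12 h arrays exceeded both 4 h arrays, by a mean of 0.88 ± 0.20 (SE, 2 pairs, adjusted p = 0.0291). Of its other probe sets one passed at 1.13 and one, at 0.81, did not. Hyou1, an Hsp70-like chaperone that recharges Hspa5 with ATP, stood at 8.92 and 8.94 at 4 h and at 10.90 and 10.87 at 12 h. This was a 3.89-fold rise (log2 difference 1.96 ± 0.15, adjusted p = 0.00107), although its other 2 probe sets, at 0.54 and 0.45, did not pass. Hsp90b1 (Grp94), the Hsp90 of the ER, read 9.86 and 9.74 at 4 h and 11.24 and 11.00 at 12 h. Its rise was 2.50-fold (1.32 ± 0.14, adjusted p = 0.00182), with 1.29 on its second probe set.

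The J-domain partners of Hspa5 rose too. Dnajb11 passed at 1.07 ± 0.20 (adjusted p = 0.015), Dnajc3 at 0.63 ± 0.14 (adjusted p = 0.0285) and Dnajb9 at 0.56 ± 0.14 (adjusted p = 0.0393). Dnajb11 differed between the pairs, with 10.29 at 4 h and 10.92 at 12 h for the vector and 9.83 and 11.33 for DN Trpm4. Sdf2l1, which works with Dnajb11 to keep unfolded proteins soluble, went from 7.34 and 7.42 at 4 h to 8.60 and 8.61 at 12 h, a difference of 1.23 ± 0.14 (adjusted p = 0.00209). Its arrays of one time lay far closer together than the times did.

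Both lectin chaperones, which hold glycoproteins while they fold, rose. Calr (calreticulin) read 10.67 and 10.59 at 4 h and 11.59 and 11.61 at 12 h, a difference of 0.97 ± 0.14 (adjusted p = 0.00498). Its other 2 probe sets stood at 1.07 and 1.04. Canx (calnexin), its membrane-bound relative, passed at 0.69 ± 0.15 (adjusted p = 0.0218), with 0.79 and 0.91 on its other probe sets.

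The disulfide enzymes were divided, with 3 of 6 higher. Pdia5, of the protein disulfide isomerase family, had a log2 signal of 5.14 and 5.09 at 4 h and of 6.84 and 7.07 at 12 h, a difference of 1.84 ± 0.15 (adjusted p = 0.00107). Pdia6, an isomerase that also acts on the sensor Ern1, read 9.68 and 9.12 at 4 h and 10.71 and 11.20 at 12 h. It passed at 1.55 ± 0.22 (adjusted p = 0.00549), and its other probe set, at 0.03, did not. Pdia4 passed at 1.12 ± 0.17, while a second probe set of it gave -0.17, the one further probe set of a called gene that went the other way. The values of the 3 genes that did not pass were 0.44 for P4hb, the isomerase that gave the family its name, 0.33 for Pdia3, the isomerase that works with calnexin and calreticulin, and 0.07 for Ero1a, the oxidase that feeds oxidising power to the isomerases. A second Pdia3 probe set passed narrowly at 0.61 (adjusted p = 0.0492). The second probe sets of Pdia3, Pdia4 and Pdia6 were dim, with deposited signals of 6.49 to 30.4, 1.36 to 60.53 and 5.73 to 41.18 where the array medians were 19.88 to 28.3, so their values say little about these genes. The other 2 probe sets of Ero1a stood at -0.31 and -0.36 without passing.

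Manf and Creld2, small secreted or resident proteins known for their induction by ER stress, both rose. Manf stood at 10.60 and 10.28 at 4 h and at 11.79 and 12.07 at 12 h (1.49 ± 0.17, adjusted p = 0.00252). Creld2 went from 9.16 and 8.97 to 10.46 and 10.69, a 2.85-fold rise (1.51 ± 0.15, adjusted p = 0.00169).

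The transcription factors and regulators of the unfolded protein response did not follow by the test, with 0 of 6 called and 1 of 6 at an unadjusted p under 0.05 (limma). Xbp1, the factor activated by Ern1 through splicing of its mRNA, read 11.24 and 11.09 at 4 h and 11.32 and 11.14 at 12 h, so the times overlapped. Its difference was 0.06 ± 0.13 (adjusted p = 0.824), and its other 3 probe sets lay between 0.02 and 0.16. These signals do not give the share of the mRNA that was spliced. Atf4, the factor translated when Eif2ak3 is active, stood at 0.24. The values of its targets were 0.19 for Ddit3 (CHOP, a factor of stress-induced death), 0.19 for Trib3, a pseudokinase, and 0.13 for Ppp1r15a, which restores translation. Atf6 gave 0.71 ± 0.25 (adjusted p = 0.124) on the probe set used, with 0.08 in the vector pair and 1.34 in the DN Trpm4 pair. A second Atf6 probe set passed at 0.74 ± 0.14 (adjusted p = 0.017).

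ER-associated degradation, which returns misfolded proteins to the cytosol, rose in 3 of 6 genes. Syvn1 (Hrd1), the ubiquitin ligase of the pathway, read 8.40 and 8.30 at 4 h and 8.93 and 9.06 at 12 h (0.64 ± 0.14, adjusted p = 0.0248). Herpud1, which gathers the ligase complex, passed at 0.62 ± 0.16 (adjusted p = 0.0458) and Derl2, a channel component, at 0.59 ± 0.14 (adjusted p = 0.0324). These 3 changes are small and near the threshold. The values of the others were 0.39 for the mannosidase-like Edem1, 0.35 for Derl1 and 0.21 for the ligase adaptor Sel1l.

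Translocation and export rose in 5 of 7 genes. Lman1 (ERGIC-53), the cargo receptor for glycoproteins that leave the ER, read 8.30 and 7.84 at 4 h and 9.56 and 9.62 at 12 h (1.52 ± 0.16, adjusted p = 0.00192). Sec24d, a cargo-binding subunit of COPII, read 8.95 and 8.89 at 4 h and 10.18 and 10.32 at 12 h, a 2.51-fold rise (adjusted p = 0.00192). For both genes the 12 h arrays lay more than 1 log2 unit above the 4 h arrays. Sec23b, its COPII partner, passed at 0.71, Sec61a1, the pore of the channel, at 0.70 and Ssr1, a subunit of the translocon-associated complex, at 0.70. The channel subunit Sec61b (0.40) and the signal peptidase subunit Sec11c (0.36) did not pass.

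**Figure D3:**
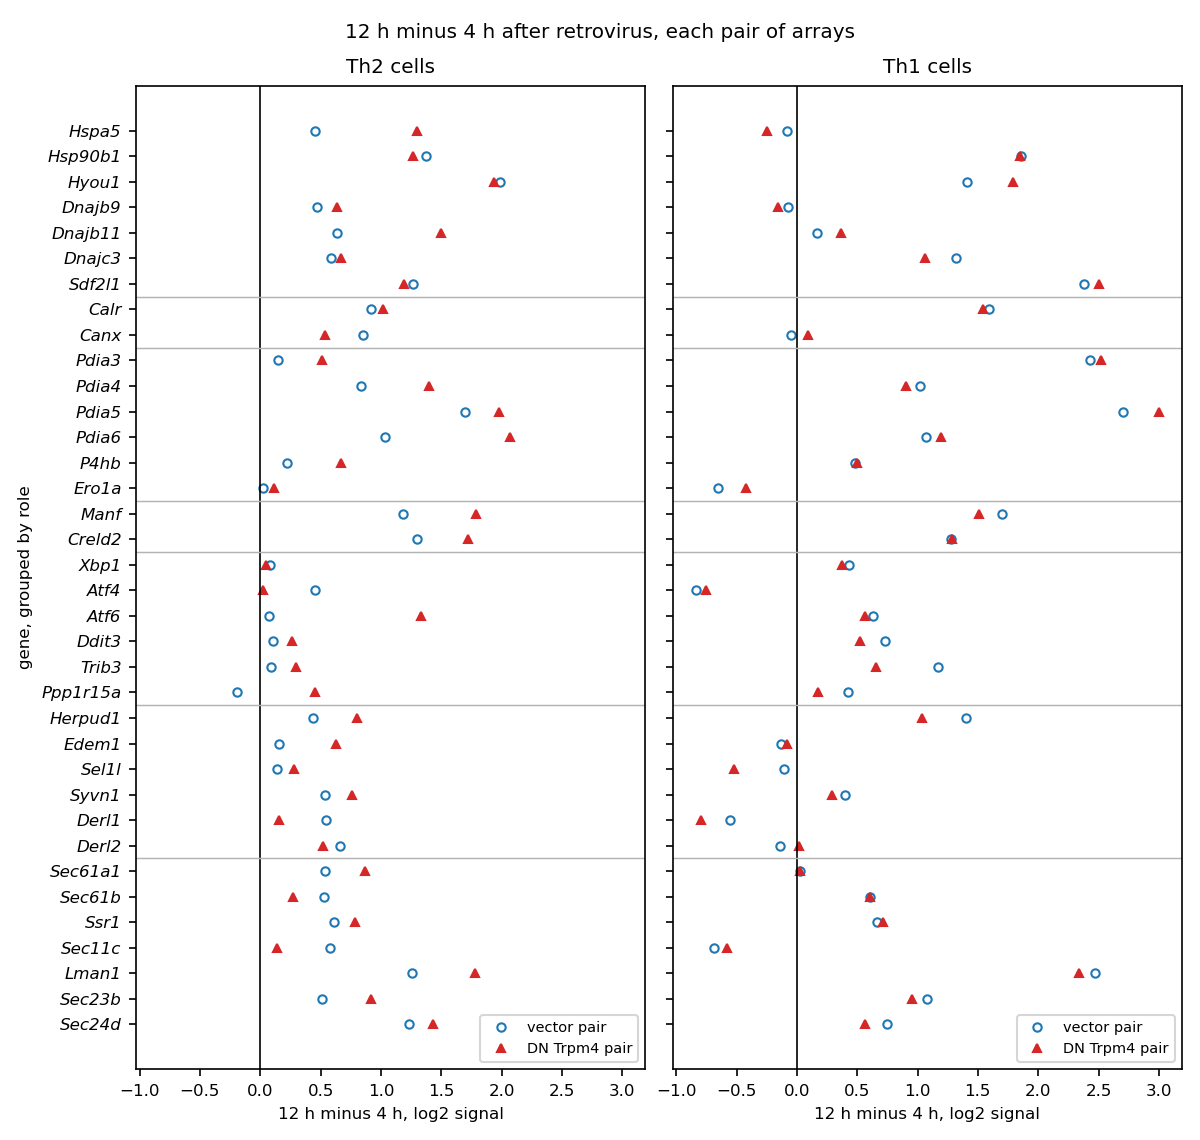
Log2 difference of 12 h minus 4 h (x axis) for the 36 genes (y axis, grouped by role) in Th2 cells (left) and Th1 cells (right), with the vector pair as open circles and the DN Trpm4 pair as filled triangles. In Th2 cells both pairs of 35 genes lie right of 0, and the 6 regulators from Xbp1 to Ppp1r15a were not called.

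The members' other probe sets and the wider pathway were read beside these counts. Of the 30 further probe sets of the 22 genes that rose in Th2 cells, 29 were also above 0 and 15 passed. Among 85 further genes of the ER pathways 23 rose and 3 fell (27.1% and 3.53%), against 4.51% and 5.57% of all probe sets. By list, 11 of 34 genes of translocation, glycan transfer and export rose, 6 of 20 of folding and glycan processing, 2 of 14 of degradation and 4 of 17 sensors and regulators. The largest rises were those of the signal recognition particle receptor subunit Srprb (1.25 ± 0.18), the Hsp70-like Hspa13 (1.17), the asparagine synthetase Asns (1.02), the translocon protein Serp1 (0.97), the oligosaccharyltransferase subunit Rpn1 (0.97) and Wfs1 (0.96). The genes that fell were the stress-induced factor Atf3 (-2.01 ± 0.19, adjusted p = 0.00157), Sdf2 (-0.94) and the lectin Os9 (-0.58).

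Marker totals of other cell types were compared between the times, since plasma cells are rich in ER. The summed linear signal of 8 markers of B cells and plasma cells was 2750 and 1940 in the Th2 arrays at 4 h and 1610 and 1630 at 12 h. Irf4, which T cells also make, as they do Prdm1 and Sdc1, went within this sum from a mean log2 signal of 10.35 to 9.52. The members of the list did not move together, with 4 of 8 higher and 4 of 8 lower at 12 h. The B cell genes Cd79a, Cd79b and Ms4a1 were among the higher, at 5.60, 4.81 and 5.23 at 4 h and 5.97, 5.10 and 5.43 at 12 h, and they exceeded the array median in 8, 3 and 3 of the 14 arrays. Pax5, also of B cells, was lower, at 5.29 at 4 h and 5.17 at 12 h. Jchain, of plasma cells, read 5.43 and 4.45 at these times and reached 9.29 in a Th2 array outside this comparison. The 5 Th2 markers summed to 14300 and 10000 at 4 h and to 12800 and 15100 at 12 h. The 5 T cell markers had sums of 9390 and 10200 at 4 h and of 6250 and 6900 at 12 h, and the part of these shifts in the result was not tested. In these bulk arrays, fewer cells of a type and less RNA per cell cannot be told apart.

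Promoters were searched for the ER stress response element (ERSE), to which Atf6 and Xbp1 bind together with NF-Y, because the genes of the set moved together in Th2 cells. The search used the 250 bases before to 50 after each RefSeq start on GRCm38.p6, on both strands. It sought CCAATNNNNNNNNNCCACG (ERSE) and ERSE-II, which is ATTGG, any 1 base and then CCACG. Windows were found for 29 of the 36 genes. The ERSE was present in 8 of the 29 (27.6%), against 37 of 27025 genes (0.137%), and ERSE-II in 2 of the 29 (6.9%), against 0.0444% of genes. A match is a description of the letters. The genes were picked as members of this pathway, so these shares are no test. The 250 bases before the start are printed for Hspa5, the classic ERSE gene, and for Hsp90b1, which held 2 matches, and the bases around the match for the other genes. Lower case marks the flanks and capitals the element, and capitals that start with CGTGG mark the element on the other strand.
Hspa5, chr2:34771840-34772089, plus strand: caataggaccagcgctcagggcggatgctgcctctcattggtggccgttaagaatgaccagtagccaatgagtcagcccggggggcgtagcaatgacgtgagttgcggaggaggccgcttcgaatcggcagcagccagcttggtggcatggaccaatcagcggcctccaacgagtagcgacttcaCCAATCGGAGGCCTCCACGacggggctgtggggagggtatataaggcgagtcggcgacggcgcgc
Hsp90b1, chr10:86705445-86705694, minus strand: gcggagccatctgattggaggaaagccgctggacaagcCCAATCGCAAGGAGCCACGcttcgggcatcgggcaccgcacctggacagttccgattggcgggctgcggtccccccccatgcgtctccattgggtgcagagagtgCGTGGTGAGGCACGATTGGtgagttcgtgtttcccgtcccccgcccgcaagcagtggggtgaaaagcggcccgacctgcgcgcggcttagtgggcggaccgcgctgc
Calr, chr8:84847055-84847113, minus strand: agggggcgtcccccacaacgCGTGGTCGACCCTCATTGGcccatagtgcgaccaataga
Canx, chr11:50325780-50325838, minus strand: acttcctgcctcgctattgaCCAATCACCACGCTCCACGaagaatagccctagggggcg
Creld2, chr15:88819500-88819558, plus strand: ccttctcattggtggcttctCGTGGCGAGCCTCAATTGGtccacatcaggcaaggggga
Dnajc3, chr14:118937807-118937865, plus strand: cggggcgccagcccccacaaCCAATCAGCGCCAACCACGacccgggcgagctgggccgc
Pdia6, chr12:17266471-17266529, plus strand: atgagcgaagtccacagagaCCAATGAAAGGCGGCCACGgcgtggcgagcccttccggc
Syvn1, chr19:6046512-6046570, plus strand: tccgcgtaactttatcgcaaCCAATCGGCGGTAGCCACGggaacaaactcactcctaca
Herpud1 (ERSE-II), chr8:94386357-94386407, plus strand: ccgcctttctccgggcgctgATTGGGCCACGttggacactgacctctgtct

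The second ERSE-II match, ATTGGCCCACG in Dnajb11 at chr16:22857852-22857862, lay just after the start and is given without flanks. No window of the set held both elements. The first base of the ERSE lay between 44 bases (Syvn1) and 212 bases (the farther match of Hsp90b1) before the start. All 8 genes with the ERSE rose from 4 h to 12 h in Th2 cells, with a median log2 difference of 0.92 and a range of 0.63 to 1.55. Of all probe sets 4.51% were higher and 5.57% lower. Both ERSE-II genes rose, at 0.62 and 1.07. Of the 19 genes with a window and neither element 8 rose, with a median of 0.40. Of the 7 genes with no window here 4 rose, and these included Hyou1, Manf and Lman1. Outside the set, 6 of 29 genes with the ERSE were tested, of which Ero1b rose (0.73, adjusted p = 0.0196) and Pan2 fell (-0.83, adjusted p = 0.0106), while the other 4 did not pass. In Th1 cells over time 5 of the 8 ERSE genes rose (median 1.16), against 27.0% higher and 29.1% lower of all probe sets. The kind of array also differs between these times. Of the 19 with neither element 12 rose and 2 fell (0.61). For siRNA minus untreated, 3 of the 8 rose (0.545), against 21.2% higher and 17.1% lower of all probe sets. Of the 19 with neither element 8 rose and 1 fell (0.20), and of the 7 with no window 5 rose (1.32). Any part of the element in these changes was not tested.

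In Th1 cells 21 of the 36 genes were higher at 12 h than at 4 h and 4 were lower, but here the times also differ in the kind of array. Among all probe sets 27.0% were higher and 29.1% lower. The median of the set was 0.62. Pdia5 read 4.69 and 4.56 at 4 h and 7.39 and 7.56 at 12 h, and Sdf2l1 6.79 and 6.86 at 4 h and 9.17 and 9.36 at 12 h. Their differences of 2.85 ± 0.15 and 2.44 ± 0.14, with those of Pdia3 (2.47 ± 0.15) and Lman1 (2.41 ± 0.16), were the 4 largest of the probe sets used. The 4 genes that fell were Atf4 (-0.80), Derl1 (-0.67), Sec11c (-0.63) and Ero1a (-0.54). Of the 85 further pathway genes 45 rose and 20 fell, led by the translocon subunits Ssr2 (2.83) and Ssr4 (2.70) and by Bbc3 (-2.72) and the sensor Ern1 (-1.97).

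Probe sets of one gene disagreed in the Th1 comparison. For Atf4 the probe set used fell by 0.80 and the other rose by 2.46. For Derl1 the values of the 4 probe sets ran from -0.87 to 3.01, and for Ero1a one probe set stood at -0.54 and another at 1.16, each past the threshold. Sec61a1 gave 0.02 on the probe set used and 2.84 and 2.93 on others. Of 32 further probe sets of the genes called in Th1, 6 went the other way and 3 of these passed, against 1 and 0 of 30 in Th2 cells. The Th1 values are therefore given as values of single probe sets. Over all probe sets of each gene the 12 h arrays were higher for Atf4 (0.83) and Derl1 (0.45), where the probe sets used were lower.

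The change with time was compared between the cell types as Th1 minus Th2, a comparison added after the values were seen. It called 16 of the 36 genes, 6 higher and 10 lower, against 38.2% of all probe sets, so the share in the set was near the background. The largest difference was that of Pdia3 at 2.15 (adjusted p = 2.2e-04), where Th2 cells changed by 0.33 and Th1 cells by 2.47. Hspa5 went the other way, at -1.05 (adjusted p = 0.0192), with 0.88 in Th2 and -0.17 in Th1. A second Hspa5 probe set rose in both cell types, by 1.13 and 1.60. The kind of array cannot be told apart from the cell type here.

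Th1 and Th2 cells were next compared over 7 pairs of equal treatment and time. In the pairs at 12 h the cell types also differed in the kind of array. Of the 36 genes, 4 were lower and 1 was higher in Th1 cells, against 6.14% and 3.65% of all probe sets. The median difference of the set was -0.10, against 0.01 for all probe sets, and 31 genes did not pass. The largest change was in Ero1a. Its log2 signal ran from 9.73 to 10.44 in the 7 Th1 arrays (median 10.16) and from 11.74 to 12.72 in the 7 Th2 arrays (median 12.51). No Th1 array reached the level of any Th2 array, a 4.54-fold difference (-2.18 ± 0.18, 7 pairs, adjusted p = 1.2e-04). The gap was widest in the pairs at 12 h, with 9.78 and 9.90 in Th1 and 12.72 and 12.63 in Th2. The untreated pair read 10.28 in Th1 and 11.79 in Th2. Ero1a had further probe sets. Its other 2 probe sets passed too, at -1.11 and -1.15, and the call held in each of 20 alternative settings.

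The other 4 calls were smaller and less stable. Sec11c ran from 9.21 to 10.17 in Th1 arrays and from 9.80 to 11.16 in Th2 arrays, lower in Th1 in each of the 7 pairs (-0.82 ± 0.19, adjusted p = 0.0258). Its gap was widest in the pairs at 12 h, where the kind of array differs, with 9.48 and 9.45 in Th1 and 11.16 and 10.93 in Th2. In the untreated pair it read 9.68 and 9.91. Its other probe set did not pass, at -0.26. Creld2 was lower in Th1 by -0.58 ± 0.14 (adjusted p = 0.0315), although the untreated pair stood level at 8.98 and 8.98. Ddit3 was lower by -0.52 ± 0.13 (adjusted p = 0.0329), with a vector pair at 12 h of 7.41 and 7.42. The opposite direction was seen for Trib3, a target of Ddit3 and Atf4, at 0.55 ± 0.14 (adjusted p = 0.041), with 5.81 and 5.85 in the vector pair at 4 h. The second probe sets of Ddit3 and Trib3 kept these directions on average without passing. Single pairs ran against them, with Ddit3 at 7.06 in Th1 and 6.16 in Th2 in the vector pair at 12 h. The second Trib3 probe set read 4.21 in untreated Th1 cells and 5.89 in untreated Th2 cells. Of 20 alternatives Sec11c passed in 13, Ddit3 in 10 and Creld2 in 9, and Trib3 passed in 6 of 19. With any 1 pair left out, 1 to 3 genes of the set passed, and without both 12 h pairs 2 passed.

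**Figure D4:**
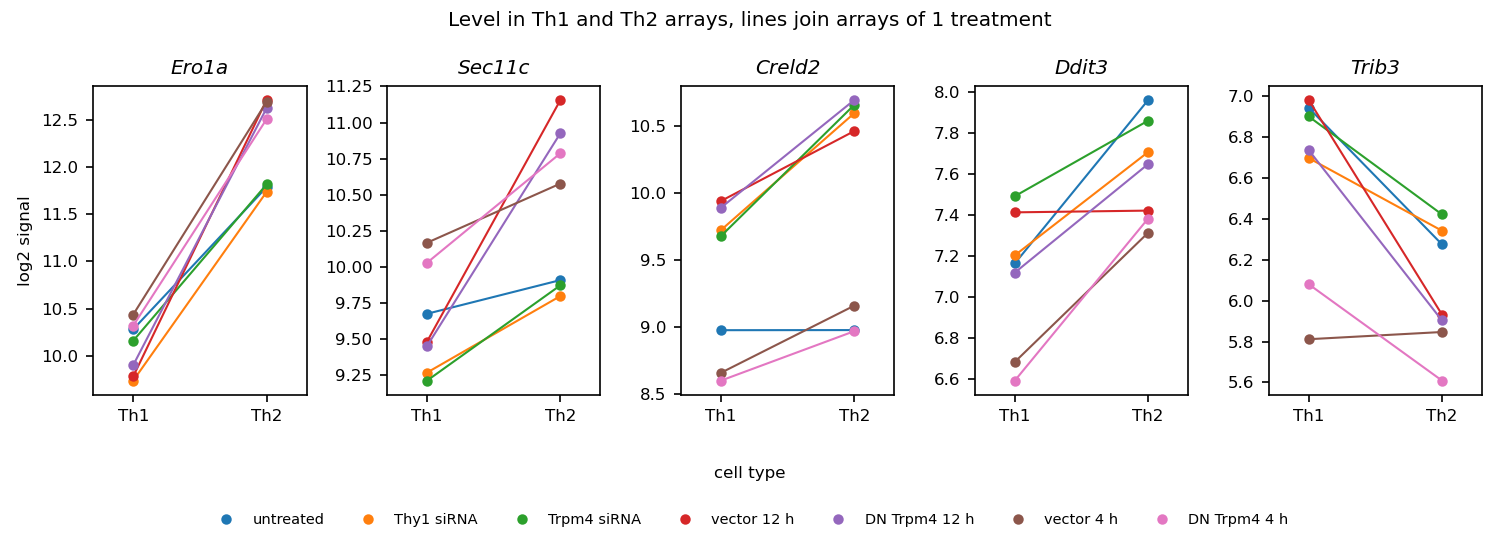
Log2 signal (y axis, a scale of its own for each gene) of the 5 genes that differed between Th1 and Th2 arrays, with 1 point per array and lines joining the arrays of 1 treatment and time. Ero1a is separated in all pairs, Sec11c, Creld2 and Ddit3 are level in single pairs or overlap between cell types, and Trib3 runs the other way.

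The median difference between cell types was not the same in all pairs of arrays, although the test given below called none of the 36 genes. The median of the 36 genes, Th1 minus Th2, was -0.42 with Thy1 siRNA and -0.43 with Trpm4 siRNA, where 27 of the 36 genes were lower in Th1, and 0.06 and 0.13 in the 4 h retrovirus pairs. It was -0.10 in the untreated pair, and 0.03 and -0.17 in the vector and DN Trpm4 pairs at 12 h. In the siRNA arrays Manf read 11.59 and 11.60 in Th1 against 11.92 and 12.01 in Th2, and Creld2 9.72 and 9.68 against 10.59 and 10.66. A test of the difference of these sets, 4 h retrovirus against untreated and siRNA, called 0 of the 36 genes and 0.339% of all probe sets (limma), with 13 of the 36 at an unadjusted p under 0.05. Without the untreated pair it called 17 of the 36 and 8676 of all 29467 probe sets. The 4 h arrays were all of the kind with high 3′ to 5′ ratios, and the untreated and siRNA arrays of the other kind. The set therefore cannot be told apart from the kind of array in this test. Of the 85 further pathway genes 4 were higher and 6 lower in Th1 over all pairs (4.71% and 7.06%, near the 3.65% and 6.14% of all probe sets), among them Atf3 (1.59 ± 0.27) and Chac1 (0.90) higher, and Cebpb (-1.38 ± 0.21), Sil1, the exchange factor of Hspa5 (-0.90), and the J-domain gene Dnajc1 (-0.72) lower.

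Inhibition of Trpm4 was the question of the series, and it called none of the 36 genes. Over 6 pairs, 0 of 36 genes and 0% of 29467 probe sets passed (limma), with 0 of the 36 and 1733 of all probe sets at an unadjusted p under 0.05. The median log2 difference was -0.01 for the set and ran from -0.19 to 0.07 in single pairs. The widest mean difference was that of Hyou1, at 0.20 ± 0.12 (adjusted p = 0.871). In Th1 cells its log2 signal went from 10.76 in the vector array to 11.59 under DN Trpm4 at 12 h, and from 9.35 to 9.80 at 4 h, while the Th1 siRNA pair stood at 11.19 and 11.01 and the 3 Th2 pairs within 0.11 of each other. Hspa5 had a mean of -0.11 ± 0.10, with its lowest pair in Th2 cells at 4 h, at 12.32 for the vector and 11.61 for DN Trpm4.

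Neither cell type and neither method gave a call. In Th1 cells alone, in Th2 cells alone, in the difference between them, for DN Trpm4 minus vector and for Trpm4 siRNA minus Thy1 siRNA, limma called 0 of the 36 genes and 0% of all probe sets. At an unadjusted p under 0.05 there were 928, 1824, 1032, 997 and 3318 probe sets in that order. Among the members Hyou1 was below it in Th1 (0.36 ± 0.16) and for DN Trpm4 (0.32 ± 0.14), and 0 of the 36 genes were in the other 3. The largest values with siRNA were 0.25 ± 0.13 for Ero1a and 0.22 ± 0.10 for Ddit3 (2 pairs, adjusted p = 0.53 and adjusted p = 0.502). Of the 6 pairs 2 had a median below 0. In Th1 cells at 12 h it was -0.0324 with DN Trpm4, with 12 of the 36 genes above the vector. The lowest was that of DN Trpm4 in Th2 cells at 4 h, at -0.19, with 27 of the 36 genes below the vector and Hspa5 and Atf6 more than 1.5-fold below it, as were 2.33% of all probe sets. The 3′ to 5′ ratio of Actb was 3.96 and 4.85 in these 2 arrays, and its part in that median was not tested. These results do not show that the levels were equal.

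**Figure D5:**
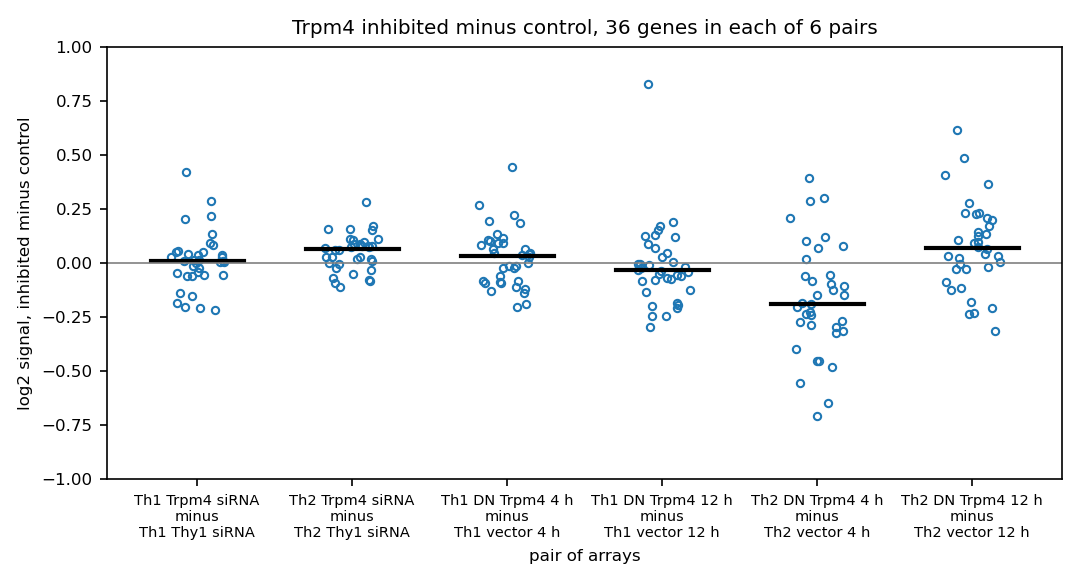
Log2 difference of Trpm4 inhibited minus control (y axis) for the 36 genes (circles) in each of 6 pairs of arrays (x axis), with the median as a bar. Medians lie between -0.19 and 0.07, and the circle at 0.83 is Hyou1 in Th1 cells at 12 h.

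Cells with either siRNA were compared with untreated cells of the same type, all on arrays without 3′ bias. Of the 36 genes 17 rose and 1 fell, against 21.2% and 17.1% of all probe sets, with a median of 0.55 against 0.04. Hyou1 read 8.02 in untreated Th1 cells and 7.88 in untreated Th2 cells, and 11.19, 11.01, 10.84 and 10.95 in the 4 siRNA arrays, an 8.27-fold difference (3.05 ± 0.13, adjusted p = 4.4e-04). Its other probe sets gave 0.13 and 1.09. Lman1 rose by 1.65 ± 0.23, Pdia5 by 1.58 ± 0.37, Atf6 by 1.53 ± 0.22, Sec61a1 by 1.32 ± 0.13 and Creld2 by 1.19 ± 0.23. Atf4 read 9.06 and 9.52 in the untreated arrays and 10.70 to 10.90 with siRNA (adjusted p = 0.00248). Thus 3 of 6 regulators, Atf4, Atf6 and Xbp1 (0.53 ± 0.14), were higher on the probe sets used. Ppp1r15a fell by 0.52, and Ddit3 and Trib3 did not pass. A second Atf4 probe set read 10.10 and 9.93 in untreated cells and 9.99 to 10.78 with siRNA. One further Atf6 probe set read 6.83 and 7.12 untreated and 6.69 to 7.45 with siRNA. Another went from 4.58 and 5.91 to between 6.57 and 7.17. Of 30 further probe sets of the called genes, 26 went the same way and 14 of these passed. The other 4 went the opposite way, and 1 of these passed.

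The comparison has limits of scale and of cells. The labels give no stimulation for either side, so transfection and any difference in stimulation cannot be told apart. With 1 array left out, 11 to 26 genes passed. On deposited signals without normalisation 26 genes passed, with a median of 1.05 against 0.28 for all probe sets, of which 12698 of 29467 passed, 9511 of them higher. The summed signal of 5 T cell markers, Thy1 among them, was 20400 and 20500 in the untreated arrays and 6550 to 10600 in the siRNA arrays. Other markers moved as well. The 5 Th2 markers summed to 3030 in untreated Th2 cells and to 18100 and 18600 with siRNA, and the 5 Th1 markers to 7250 in untreated Th1 cells and to 11800 and 11800 with siRNA. These 2 lists include the cytokine genes Il4, Il5, Il13 and Ifng, so the sums do not measure cell numbers alone. The 4 markers of CD8 T cells and NK cells went from 217 to 884 and 882 in Th2 cells and from 529 to 373 and 338 in Th1 cells. Of these 4, Eomes reached a log2 signal of 9.58 in a Th2 array. Cd8a, Cd8b1 and Ncr1 reached at most 6.89, 6.65 and 5.17 in any Th2 array. Their highest values in any Th1 array were 8.55, 6.68 and 7.23, and that of Eomes was 7.06. The 7 markers of macrophages and dendritic cells summed to 382 and 538 in untreated cells and to 172 to 265 with siRNA. The part of these shifts in the result was not tested. The wider pathway had 30 of 85 genes higher and 13 lower (35.3% and 15.3%), against 21.2% and 17.1% of all probe sets. Asns (2.28 ± 0.60), Sesn2 (2.12 ± 0.33) and Atf3 (2.02 ± 0.46) led those that rose. Os9 (-1.75 ± 0.16) and Bbc3 (-1.42 ± 0.20) led those that fell.

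Retrovirus at 12 h and siRNA were compared in Th1 cells alone, where both sides were of one kind of array. They differed in delivery, and the labels give a stimulation for the retrovirus arrays and none for the siRNA arrays. Of the 36 genes 17 were higher and 2 lower with retrovirus, against 22.2% and 24.0% of all probe sets, and the median was 0.25. Sec24d, the COPII subunit, read 7.89 and 7.89 with siRNA and 9.88 and 9.80 with retrovirus, a difference of 1.95. Of the 7 genes of translocation and export 6 were higher and of the 6 of degradation 4, against 3 of 7 chaperones. Of 32 further probe sets of the called genes, 26 went the same way and 21 of these passed. The other 6 went the opposite way, and 3 of these passed. For Ssr1 the probe set used read 10.84 and 10.89 with siRNA and 11.31 and 11.34 with retrovirus. Another Ssr1 probe set read 8.48 and 8.42 with siRNA and 5.75 and 5.87 with retrovirus. The direction of the set depended on scaling, since on deposited signals 7 genes were higher and the median was -0.07, with all probe sets at -0.18. With 1 array left out, 8 to 12 genes passed.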

How the data were processed

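Total RNA of 14 mouse T cell conditions was hybridised to Affymetrix arrays, 1 array each, per the labels. The deposited values are linear probe set intensity values, and the authors' summarisation and scaling are not given in the sources used here. The signals were quantile normalised, a pseudocount of 16 was added and log2 was taken. Fold changes are on this log2(signal + 16) scale, which understates changes of low genes. Probe sets above the array median in at least 2 of 14 arrays were kept, 29467 in all. Matched pairs were fitted with the pair as a block in limma 3.58.1 (R 4.3.3), with Benjamini-Hochberg adjustment over all probe sets and a threshold of 0.05. The fit was tested on simulated data. Probe sets were named through the platform's annotation: 34958 had 1 gene, 932 several and 9211 none. Every probe set of the 36 genes annotated to 1 gene alone was read. Of the further pathway genes, up to 6 per comparison and direction were eligible to be named, largest change first. Promoter windows came from RefSeq. The members, lists and comparisons were chosen with earlier results of these data known. The alternatives were other scalings, pseudocounts, filters, variance models, probe set means, no pair block, and leaving out arrays or pairs.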

Additional observations from a re-analysis of the deposited data

Results flagged for a closer look

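In 16 of the 36 genes the change from 4 h to 12 h differed between Th1 and Th2 cells by the test of the difference itself (limma, adjusted p under 0.05), against 38.2% of all probe sets, so the share is near the background. The values are log2 differences, Th1 minus Th2, and the kind of array differs between the times in Th1 cells only, so it cannot be told apart from the cell type. The change was greater in Th1 for Pdia3 (2.15, adjusted p = 2.2e-04), Sdf2l1 (1.21, adjusted p = 0.00174), Pdia5 (1.01), Lman1 (0.89), Trib3 (0.72) and Calr (0.60). It was lower in Th1 for Hspa5 (-1.05, adjusted p = 0.0192), Atf4 (-1.03), Derl1 (-1.02), Sec11c (-0.99), Sec61a1 (-0.68), Dnajb9 (-0.67), Canx (-0.67), Sec24d (-0.67), Derl2 (-0.66) and Ero1a (-0.61). Of the 25 further probe sets of these genes, 13 went the other way and 7 of these passed.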

How the results depend on the processing

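Each comparison was recomputed under 10 to 20 alternatives, and values are log2 medians of the 36 genes or counts that passed. In Th1 minus Th2, 5 genes became 2 with a pseudocount of 1, 3 with probe set means, 1 without the pair block, 2 without both 12 h pairs and 1 (median -0.37) in the untreated and siRNA pairs alone. In the 4 h pairs alone 13 passed (median 0.14), with Hspa5 at 0.71, Pdia3 at -0.46, Pdia5 at -0.49, Pdia6 at 0.51 and Atf6 at 0.55, each reversed. With 1 pair left out 1 to 3 passed. Where leaving out an array or pair left an arm with 1, that one was assumed to vary like the other arms of the fit. The change of that difference between the 4 h retrovirus pairs and the untreated and siRNA pairs had a median of 0.20 with probe set means, and 0 to 17 genes passed with 1 pair left out (17 without the untreated pair). The siRNA medians for Trpm4 were 0.0717 on deposited and 0.0811 on centred signals, and no pair could be left out there, since no residual degree of freedom remains. The Trpm4 comparisons called 0 of the 36 genes under every alternative run. From 4 h to 12 h in Th1, the median was 0.47 on deposited signals, 0.52 centred, 0.53 with a pseudocount of 64 and 0.81 with probe set means, which reversed Hspa5 (0.48), Ero1a (0.0919), Atf4 (0.83), Sel1l (0.64) and Derl1 (0.45), and 17 to 27 genes passed with 1 pair left out. In Th2, 0 genes passed with a pseudocount of 1, 15 on deposited signals, 12 to 23 with 1 pair left out, and 17 in the 4 Th2 arrays alone, an alternative chosen after seeing the data.

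For the difference between these time changes, 10 genes passed on centred signals, 6 with a pseudocount of 1 and 4 to 18 with 1 pair left out, with medians of -0.37 to 0.0892. Probe set means gave a median of 0.25 and reversed Ero1a (0.29), Atf4 (0.56), Derl1 (0.31) and Sec61a1 (0.59). For siRNA minus untreated, medians were 1.05 on deposited signals, with Edem1 reversed at 0.52, and 0.85 on centred signals, and probe set means reversed Pdia4 (0.71). With 1 array left out, 11 to 26 genes passed with medians of 0.33 to 0.62, and Herpud1 turned to -0.64 without the untreated Th2 array, against 0.7554 without the Th1 one. For Th1 retrovirus at 12 h minus siRNA, deposited signals gave a median of -0.0745 with Dnajb11 at -0.0672, Calr at -0.37, Canx at -0.0367, Pdia6 at -0.0184, P4hb at -0.35, Xbp1 at -0.0252, Sec61b at -0.0260 and Ssr1 at -0.0047. Centred signals gave -0.0568 with Dnajb11 at -0.0495, Calr at -0.36, Canx at -0.0190, Pdia6 at -0.0006, Xbp1 at -0.0075 and Sec61b at -0.0082. A pseudocount of 1 left 11 genes, the filter at the 75th percentile moved the median to 0.26, and probe set means reversed Xbp1 (-0.0755), Ddit3 (0.64) and Ssr1 (-0.36). With 1 array left out 8 to 12 genes passed, with medians of 0.26 to 0.29. Over all features, the count for Th1 minus Th2 was 2884 and ran from 319 (untreated and siRNA pairs alone) to 8111 (4 h pairs alone), and that for the change of this difference at 4 h was 100 and ran from 0 to 8676 (without the untreated pair). The siRNA comparison for Trpm4 called 98 probe sets with an eBayes trend and 4 with a pseudocount of 64, against 0. With probe set means 7245 genes passed over time in Th1 (16537 probe sets otherwise), 1739 in Th2 (2970), 5457 for siRNA minus untreated (11288), 6474 for Th1 retrovirus minus siRNA (13609) and 4582 for the difference of times (11253), which counts genes in place of probe sets. Deposited signals moved the median of all probe sets to 0.28 for siRNA minus untreated and to -0.18 for Th1 retrovirus minus siRNA, where centred signals gave -0.16, and to -0.12 over time in Th1. The cause of these changes was not tested.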
